A study of Homo sapiens with 12 samples.

Results

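RNA in the extracellular vesicles (EVs) of hypoxic cells was compared with RNA in the EVs of normoxic cells, using 3 libraries of each, the 6 EV libraries among 12 in the series. The cells were HEK293, an established human embryonic kidney line, grown in DMEM with 10% FBS. All cells, controls included, carried the 4EC1 plasmids (labelled eGFP-EIF4E-C-YTHDF1/GBP1-CD9), delivered with Lipofectamine 3000 for 48 h. The cells of the hypoxia group spent 24 h in a hypoxia chamber, at an oxygen level that the sources used here do not give. EV RNA was isolated with the exoRNeasy midi kit and made into stranded total RNA libraries (SMARTer kit, version 2), and the remaining 6 libraries were made from cells of the same conditions. Whether replicates came from different cultures is not in the labels, and p-values here reflect the spread among these libraries alone, which may be technical. In bulk RNA, fewer vesicles of a kind and less RNA per vesicle cannot be told apart.

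EVs are membrane-bound particles that carry proteins and RNA out of cells, and their content can follow the state of the cell that sheds them. Under low oxygen the hypoxia-inducible factors (HIF) are no longer degraded and switch on genes of glycolysis, glucose uptake, vessel growth and collagen modification. Structured noncoding RNAs also occur in EVs. Box C/D small nucleolar RNAs (snoRNAs) guide methylation of ribosomal RNA or, like U3, help to cut its precursor. Box H/ACA snoRNAs guide conversion of uridine to pseudouridine, and the scaRNAs do the same work on spliceosomal RNAs in Cajal bodies. Most human snoRNAs are cut out of the introns of other genes.

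The 4 snoRNA genes printed here, a second U3 copy (SNORD3C) and the genes MIR3648-2 and MIR3687-2 were the only genes of 27904 tested to be called (limma, adjusted-p threshold 0.05, on genes averaging 10 or more) in the fit of all 6 libraries and again in each of the 6 fits that left out a library, 7 genes or 0.0251%. The 4 are shown because their calls did not rest on any single library. The transcripts are from GENCODE release 29 on GRCh38, and the shortest transcript of each gene is given. Capitals mark the core of the C box (TGATGA) and the last D box (CTGA) of a box C/D snoRNA and the ACA near the end of a box H/ACA snoRNA.
SNORD17: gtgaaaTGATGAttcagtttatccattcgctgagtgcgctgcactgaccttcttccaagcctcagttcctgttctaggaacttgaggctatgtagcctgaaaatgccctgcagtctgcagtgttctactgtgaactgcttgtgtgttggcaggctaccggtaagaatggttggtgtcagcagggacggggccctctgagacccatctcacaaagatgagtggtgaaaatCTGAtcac
SNORD3B-1: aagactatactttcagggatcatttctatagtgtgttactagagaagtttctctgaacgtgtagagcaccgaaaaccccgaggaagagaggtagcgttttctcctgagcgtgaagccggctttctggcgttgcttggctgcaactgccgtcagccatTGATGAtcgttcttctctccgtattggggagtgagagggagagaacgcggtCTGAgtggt
SNORA23: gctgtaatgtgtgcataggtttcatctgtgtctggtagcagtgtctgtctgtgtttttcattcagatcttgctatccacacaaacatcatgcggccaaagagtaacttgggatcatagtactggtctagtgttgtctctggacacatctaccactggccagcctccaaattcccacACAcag
SNORA74B: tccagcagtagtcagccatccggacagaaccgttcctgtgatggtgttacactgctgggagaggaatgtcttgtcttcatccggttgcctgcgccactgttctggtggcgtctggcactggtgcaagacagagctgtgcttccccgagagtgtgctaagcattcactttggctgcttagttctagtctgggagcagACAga

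SNORD17 lies at chr20:17962710-17962946 on the minus strand, in introns of SNX5 and OVOL2. SNORD3B-1 (chr17:19061912-19062669, plus strand) and SNORD3C (chr17:19189665-19190245, minus strand) are copies of U3. Their 217-base transcripts differ at 2 bases, C78A and G108A, counted from the 5′ end with the SNORD3B-1 base first, so reads can be split between copies and single U3 values are uncertain. SNORA23 lies at chr11:9428773-9428954 on the plus strand, in an intron of IPO7. SNORA74B lies at chr5:173020728-173020928 on the plus strand, in an intron of ATP6V0E1. The microRNAs of MIR3648-2 and MIR3687-2 are encoded in the transcribed spacer of the ribosomal RNA precursor. The libraries were of long RNA, so reads on the 2 genes do not measure the mature microRNAs. MIR3687-2, the seventh gene, was named after its values were seen. Among the listed box C/D snoRNAs, 73.6% (206 of 280) held both TGATGA and CTGA on the transcript strand, against 0.518% of the 193 listed box H/ACA snoRNAs, of which 81.9% held ACA in their last 6 bases.

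Across the table, 1586 genes (5.68%) rose and 1846 (6.62%) fell in hypoxia EVs as deposited, while 4413 (15.2%) rose and 189 (0.65%) fell with each library scaled to the same total. The 1586 and 186 of the falling genes were called under both. Leaving out a library moved these counts widely. Without normoxia replicate 2 none rose (5035 at an unadjusted limma p under 0.05) and 7 fell, without normoxia replicate 3 the counts were 6144 and 3934, and without hypoxia replicate 3 they were 4 and 32. The other 3 libraries gave 389 and 247 (without normoxia replicate 1), 129 and 279 (hypoxia replicate 1) and 46 and 121 (hypoxia replicate 2). Over genes the normoxia libraries had a median SD of 0.716 on the log2 scale and the hypoxia libraries 0.407, and normoxia replicate 3 was nearer to the hypoxia libraries (root mean square log2 difference 1.25 to 1.40) than to normoxia replicates 1 (2.09) and 2 (1.63). Subtracting each library's level on near-silent genes and using equal totals together, settings chosen after seeing the data, left 0 rising genes (3334 at an unadjusted limma p under 0.05) and 4 falling ones, SNORD17, MIR3648-2 and 2 IDs without a name in the annotation.

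SNORD17 stood at 6458, 7841 and 3839 normalized counts in normoxia EVs and at 659, 656 and 631 in hypoxia EVs, normalized counts being reads times 1 factor per library. The groups lay far apart, the normoxia mean being 9.32 times the hypoxia mean, or 6.16 times with each library scaled to the same total. On the log2(value + 1) scale used throughout, the fold change of hypoxia over normoxia was -3.16 (SE 0.24, limma adjusted p = 2.1e-08), and with equal totals -2.59 (adjusted p = 2.14e-07). The cells held 1759 ± 113 under normoxia and 1734 ± 266 under hypoxia (SD, n = 3 each), a log2 fold change of -0.03 (adjusted p = 0.791). The EV response of SNORD17 was lower than its cell response by an interaction of -3.13 (SE 0.28, limma adjusted p = 1.08e-05).

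SNORA23, a box H/ACA snoRNA, was at 1915, 2767 and 1239 in normoxia EVs and at 335, 362 and 202 in hypoxia EVs. The lowest normoxia library was thus well above the highest hypoxia library, and the log2 fold change was -2.68 (SE 0.27, adjusted p = 5.1e-06). SNORA74B was at 507, 721 and 537 in normoxia EVs and at 102, 79.2 and 93.3 in hypoxia EVs, with a log2 fold change of -2.66 (SE 0.29, adjusted p = 1.65e-05). It also showed no overlap between groups. In cells, SNORA23 changed by 0.13 (adjusted p = 0.263) and SNORA74B by -0.11 (adjusted p = 0.555), neither past the threshold. Groups that do not overlap in this way were common, with 14.5% of all genes tested lower and 23.4% higher in every hypoxia library.

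SNORD3B-1 was at 966, 431 and 494 in normoxia EVs and at 81.5, 122 and 93.3 in hypoxia EVs (log2 fold change -2.59, SE 0.32, adjusted p = 0.000129). SNORD3C was at 5633, 1823 and 1884 against 476, 761 and 583 (log2 fold change -2.17, SE 0.31, adjusted p = 0.000635). In both genes normoxia replicate 1 was the highest library. Summing the 4 listed U3 copies, which removes the split between them, gave 30251, 8518 and 10234 in normoxia EVs and 2984, 6889 and 4171 in hypoxia EVs. The groups did not overlap, but normoxia replicate 2 and hypoxia replicate 2 were close. The sum was 3.49 times higher in normoxia, or 2.25 times with equal totals (exact two-sided permutation test, p = 0.1, the smallest that 3 against 3 can give). The same sum was 3036 in normoxia cells and 2777 in hypoxia cells.

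MIR3648-2 was at 12964, 16123 and 10357 in normoxia EVs and at 2680, 1856 and 1740 in hypoxia EVs, with a log2 fold change of -2.65 (SE 0.24, adjusted p = 5.88e-07). MIR3687-2 was at 1710, 2311 and 1560 against 655, 518 and 479, with a log2 fold change of -1.75 (SE 0.22, adjusted p = 0.000186). Every hypoxia library was below every normoxia library for both. These 2 genes also fell in the cells, by 0.55 and 0.42 on the log2 scale (adjusted p = 1.9e-08 and 1.02e-06), and the EV fall was larger (interaction -2.10, adjusted p = 0.00189, and -1.33, adjusted p = 0.0134). With equal totals the 7 genes had log2 fold changes from -2.59 (SNORD17) to -1.18 (MIR3687-2), all still past the threshold. The lowest read count behind any of these values was 37.

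**Figure D1:**
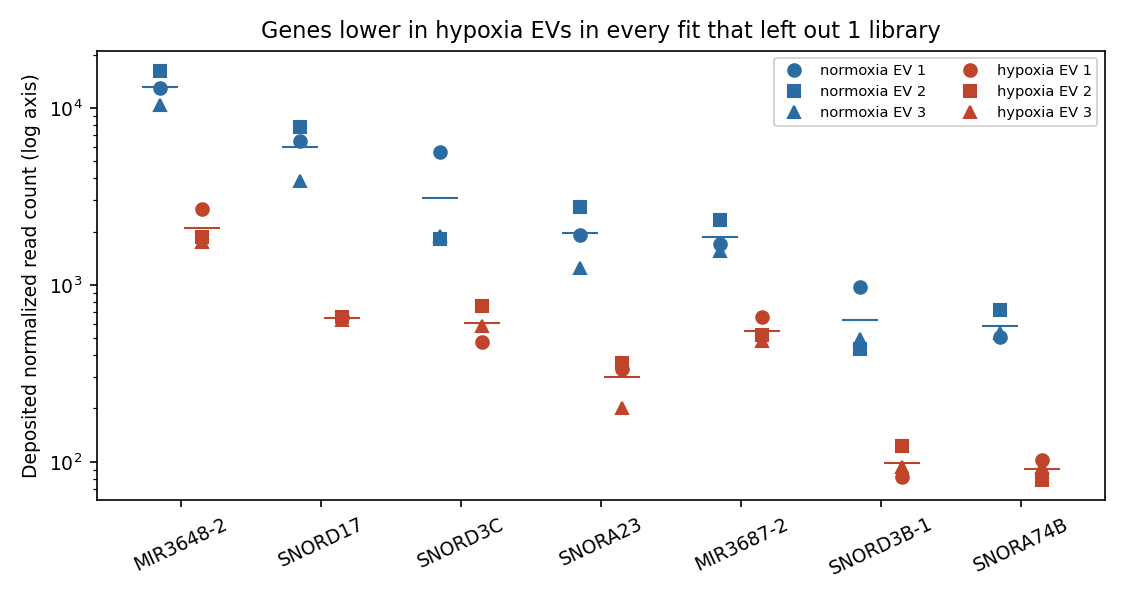
Deposited normalized read counts (log axis) of the 7 genes called lower in hypoxia EVs in every fit that left out 1 library. Points are libraries, short lines are group means, and in all 7 genes the 3 hypoxia libraries lie below the 3 normoxia libraries.

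The wider families of structured RNAs lay on the same side. Of the 193 listed box H/ACA snoRNAs, 41 reached a mean of 10 and 21 of these fell, against 6.62% of all genes tested. None rose, against 5.68% of all genes, also at an unadjusted limma p under 0.05 and by edgeR and DESeq2. Their median log2 fold change was -1.60, while that of all genes tested was 0.60. With equal totals 13 of 41 fell (0.65% of all genes, none higher against 15.2%), and the medians were -1.05 for the list and 1.21 for all genes. The overall median thus moved from 0.60 to 1.21 with the scaling, and changes are read relative to it. All 193 together took 0.172, 0.115 and 0.105% of the library in normoxia EVs and 0.049, 0.0607 and 0.0504% in hypoxia EVs. No hypoxia library reached a normoxia library (exact permutation p = 0.1). In the cells the same list took 0.083% in normoxia and 0.0916% in hypoxia.

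Box C/D snoRNAs were seldom covered. Of 280 listed genes, 166 were at 0 in all 6 EV libraries and 12 were tested. Of these 12, 5 fell as deposited (6.62% of all genes) and 4 with equal totals (0.65%). The tested genes had a median length of 128 bases, against 80 bases for the others. The whole list took 0.18% ± 0.0725 of normoxia and 0.069% ± 0.023 of hypoxia EV libraries (SD, n = 3 each, exact permutation p = 0.1), most of it U3.

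The scaRNAs included SCARNA7, which was at 147, 263 and 149 in normoxia EVs and at 48.1, 25.9 and 42.9 in hypoxia EVs (log2 fold change -2.22, SE 0.47, adjusted p = 0.0146). SCARNA22 was at 414, 274 and 254 against 81.5, 119 and 68.1 (-1.80, SE 0.35, adjusted p = 0.0112). With SCARNA8 they were the 3 of 13 tested scaRNAs that fell (6.62% of all genes), and 2 did with equal totals (0.65%). The groups of all 3 were apart.

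Spliceosomal U RNAs, the RNA cores of the splicing machine, fell in 10 of 16 tested members as deposited (6.62% of all genes) and in 6 with equal totals (0.65%). RNU4-2, a U4 gene, was at 1475, 962 and 821 in normoxia EVs and at 473, 308 and 366 in hypoxia EVs (log2 fold change -1.48, SE 0.25, adjusted p = 0.00514). RNU5E-1, a U5 gene, was at 2878, 1277 and 1464 against 596, 759.7 and 774 (-1.31, SE 0.26, adjusted p = 0.0112). No hypoxia library reached a normoxia library for either gene. The 6 listed U1 copies, near-identical genes, summed to 5578, 3753 and 3747 in normoxia EVs and 2568, 1768 and 2002 in hypoxia EVs, a ratio of 2.06 in favour of normoxia and of 1.37 with equal totals (exact permutation p = 0.1).

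Among other RNAs of ribonucleoproteins, RMRP, the RNA of RNase MRP, was at 85424, 59697 and 52848 in normoxia EVs and 27159, 31614 and 24085 in hypoxia EVs (log2 fold change -1.23, SE 0.36, adjusted p = 0.0341, and -0.67 with equal totals, adjusted p = 0.00743). TERC, the template RNA of telomerase, was at 766, 249 and 235 against 148, 148 and 63.1 (-1.66, SE 0.41, adjusted p = 0.0204), and missed the threshold with equal totals (-1.10, adjusted p = 0.0637). The 7SK RNA, which holds back transcription elongation, was at 130496, 172996 and 82015 against 78029, 58300 and 59369 (-0.93, adjusted p = 0.164). RMRP and TERC were the 2 of 8 tested genes of this list that fell (6.62% of all genes), and 7SK was not called.

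Genes that hold snoRNAs in their introns changed less than the snoRNAs. Of the 68 snoRNA and scaRNA genes tested, 54 lay in an intron of exactly 1 tested gene, 49 such host genes in all. In 46 of the 54 the small RNA had the lower fold change. The medians were -1.58 for the small RNAs and -0.66 for their hosts, and with equal totals -1.04 and -0.09. IPO7, a nuclear import receptor that hosts SNORA23, was at 1204, 1121 and 921 in normoxia EVs and at 564, 551 and 559.9 in hypoxia EVs (log2 fold change -0.94, adjusted p = 0.0167). With equal totals IPO7 was no longer called (-0.38, adjusted p = 0.0958), whereas SNORA23 was (-2.12, adjusted p = 0.000451). ATP6V0E1, a proton pump subunit that hosts SNORA74B, was at 333, 189 and 168 against 134, 123 and 136 (-0.74, adjusted p = 0.125). SNX5, a sorting nexin that holds SNORD17, changed by -0.86 (adjusted p = 0.0208), and by -0.30 with equal totals (adjusted p = 0.157). The differences between small RNA and host were not tested, and reads of an intron-held RNA and of unspliced host RNA cannot be separated in these values.

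**Figure D2:**
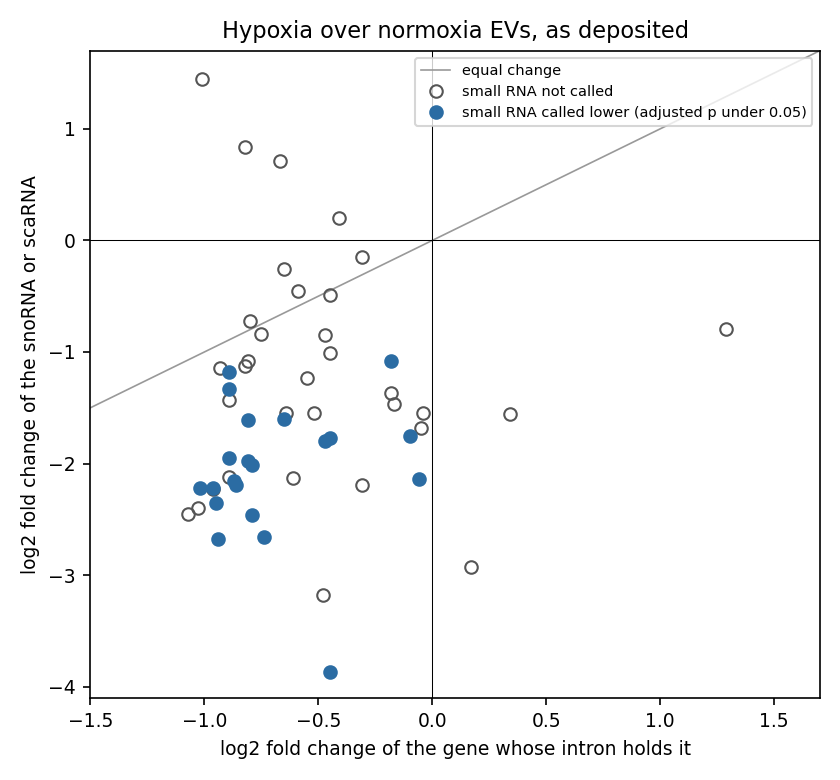
Log2 fold change, hypoxia over normoxia EVs as deposited, of 54 snoRNAs and scaRNAs against that of the gene whose intron holds each. Filled points are small RNAs called lower, and 46 of the 54 lie below the line of equal change.

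Genes that the cells hardly express were higher in hypoxia EVs as a group. Among coding genes averaging at least 100 in EVs, 645 rose under both scalings. Of these, 50.7% (327) had a mean of at most 20 in normoxia cells. Such genes made up 0 of the 136 that fell under both and 3.73% (352) of the 9440 others. Genes this low in cells can reach an EV mean of 100 through their hypoxia libraries, which favours the 50.7%. Across the 6599 coding genes whose cell mean did not exceed 20, the value per kilobase of exon was 4.79, 6.92 and 11.7 in normoxia EVs and 16.3, 16.9 and 17.5 in hypoxia EVs. The hypoxia libraries were alike and all higher, while normoxia replicate 3 stood nearest to them. The means were 7.8 ± 3.52 and 16.9 ± 0.561 (SD, n = 3 each), a ratio of 2.17 that became 2.88 without normoxia replicate 3 and 3.03 with equal totals (exact two-sided permutation test, p = 0.1). In the cells these genes were at 1.3 to 1.53 in normoxia and 1.71 to 1.97 in hypoxia per kilobase. The genes were chosen from cell values alone. A read fell on 64.6, 73.7 and 81.5% of them in normoxia EVs and on 86.3, 85.3 and 86.1% in hypoxia EVs, and hypoxia replicate 3, at 86.1%, had the fewest reads of all (3259453).

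The same ordering ran through all protein-coding genes when they were grouped by their level in normoxia cells, which uses no EV value. Genes over 1000 in cells had a median log2 fold change of -0.70, and 46.9% of the 2343 tested fell while 0.0427% rose. Genes over 10 to 100 had a median of 0.80, and 14.1% rose while 0.218% fell. The largest group, 7526 tested genes over 100 to 1000 in cells, had a median of -0.32, and 79 rose while 622 fell. With equal totals the medians became -0.13, 1.36 and, for the largest group, 0.24, so that its sign turned, with 701 rising and 24 falling. Of the genes over 1000, 4.78% then fell. Equal totals shift all fold changes nearly alike, so the unchanged order of the group medians was given in advance. Of the 1764 genes at or under 1 in cells, 550 reached the filter, many through their hypoxia libraries, so their median of 1.71 was favoured by it.

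**Figure D3:**
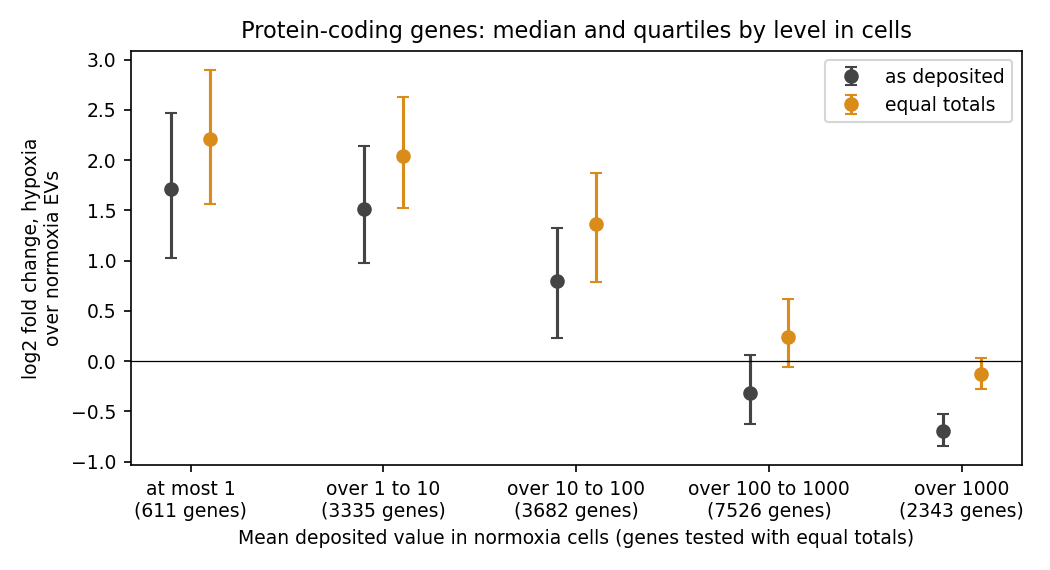
Median log2 fold change, hypoxia over normoxia EVs, of protein-coding genes in 5 ranges of the mean value in normoxia cells, with bars from the lower to the upper quartile. Black points use values as deposited and orange points equal library totals, and the median falls from 1.71 to -0.70 and from 2.21 to -0.13.

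Genes typical of other tissues were among those low in cells. The 355 listed olfactory receptors, odorant sensors of the nose, took 0.00898, 0.0173 and 0.0413% of the library in normoxia EVs and 0.0881, 0.0823 and 0.0953% in hypoxia EVs. The 138 keratin and keratin-associated genes of skin and hair took 0.015, 0.0207 and 0.0406% against 0.0781, 0.0814 and 0.0731%. In both lists each hypoxia library was above each normoxia library, and normoxia replicate 3 was the closest to them. Of the listed genes, 160 olfactory receptors and 86 keratins reached the filter, many through the hypoxia libraries, so that no count of calls is read from them.

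OR52N2, an olfactory receptor, was at 2.38, 16.2 and 33.2 in normoxia EVs and at 111, 107 and 136 in hypoxia EVs (log2 fold change 3.23, SE 0.79, adjusted p = 0.0202). KRT4, a keratin of moist epithelia, was at 19, 28.8 and 27.4 against 120.2, 140.1 and 177 (2.50, SE 0.54, adjusted p = 0.0148). In the cells their normoxia means were 2.85 and 2.74. CACNA1E, a neuronal calcium channel, was at 73.7, 234 and 338 against 619.8, 572 and 557 (1.69, SE 0.37, adjusted p = 0.0149). MUC16, a cell surface mucin, was at 435, 1222 and 1265 against 2287, 2325 and 2409 (1.42, SE 0.29, adjusted p = 0.0133). None of the 4 overlapped between groups, and all 4 stayed called with equal totals.

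Summed markers of blood, liver and muscle were higher in hypoxia EVs too. The 32 blood and immune markers summed to 1035 to 1730 in normoxia EVs and 2480 to 2797 in hypoxia EVs, with none of the 32 at 0 in all libraries of either group. The 21 liver and plasma markers summed to 495 to 1214 and to 1774 to 1861. HBB, a haemoglobin chain, was between 1.8 and 19.8 and ALB, serum albumin, between 0 and 12.2 over the 6 libraries. Some other plasma and immune markers were higher in every hypoxia library than in any normoxia library, among them the complement protein C3, at 174, 191 and 193 in normoxia EVs and 345, 323 and 325 in hypoxia EVs, and the T cell coreceptor CD4, at 131, 124 and 166 against 249.8, 224 and 373. The 32 muscle genes summed to 5909 to 8619 and 10657 to 10956. Called higher were 3 of 29 tested blood, 3 of 18 liver and 14 of 32 muscle genes, against 5.68% of all genes. The filter favours such calls in the blood and liver lists, while all 32 listed muscle genes passed it. The list medians in normoxia cells were 3.72, 5.38 and 12.3. Of coding genes over 1 to 10 there 13.5% rose, and of those over 10 to 100 14.1%. The muscle gene ACTN2, an actin crosslinker, fell, from 1403, 1176 and 1081 to 844, 647 and 699. The part of such cells or of serum in these results was not tested. All 11 listed HEK293 markers were above 0 in every EV library. As deposited 1 of them rose (ENO2) and 1 fell (NEFM), against 5.68% and 6.62% of all genes. ENO2 was at 121, 117 and 154 in normoxia EVs and 309.9, 277 and 212 in hypoxia EVs. IRS4, the receptor substrate typical of this line, was at 2521, 2146 and 1261 in normoxia EVs and 1318, 1186 and 1082 in hypoxia EVs. Its groups overlapped and it was not called, and its cell means were 9274 in normoxia and 4750 in hypoxia.

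The 12 protein-coding genes that the naming rule gives as higher included STYXL2, LCP2, DGKG, TCEAL2, PCARE, STAB2, A2ML1, TRPV6, NXF3, PAX8 and TCF21. STYXL2, a phosphatase-like protein of muscle, was at 21.4, 75.7 and 106 in normoxia EVs and at 398, 429 and 290 in hypoxia EVs (log2 fold change 2.70, SE 0.44, adjusted p = 0.00382), and stayed called in 5 of the 6 fits without a library. TRPV6, an epithelial calcium channel, was at 11.9, 132 and 287 against 493, 470.4 and 573 (2.69, SE 0.62, adjusted p = 0.0167). PAX8, a transcription factor of kidney and thyroid, was at 16.7, 43.2 and 70.4 against 227, 193 and 194 (2.43, SE 0.49, adjusted p = 0.0135). The groups did not overlap in any of the 3, which the naming rule required. None of the 12 was called in all 6 such fits, so they met the rule without that condition. All 12 had means of at most 31.2 in normoxia cells, and LCP2, an adaptor of lymphocytes, entered the blood list with its value known.

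Noncoding genes that rose under the same rule were MOXD2P, CARMN, LINC02395, GOLGA6GP, NXF4 and TUBA5P. CARMN, a noncoding RNA known from heart and smooth muscle, was at 33.3, 68.5 and 145 in normoxia EVs and at 398, 319.7 and 267 in hypoxia EVs (log2 fold change 2.21, SE 0.42, adjusted p = 0.0112). MEG3, an imprinted lncRNA, was at 54.7, 146 and 246 against 423, 457 and 388 (1.74, SE 0.38, adjusted p = 0.0152). Both were clear of overlap, which the naming rule required of CARMN. As classes, lncRNAs took 2.70% ± 0.556 of normoxia and 4.12% ± 0.276 of hypoxia EV libraries, and processed pseudogenes 0.931% ± 0.266 and 1.84% ± 0.192 (SD, n = 3 each, exact permutation p = 0.1 for both, adjusted p = 0.133 over 16 classes).

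Transcripts abundant in cells made up the lower protein-coding genes. Over all genes tested 5.69% rose and 0.667% fell under both scalings. Coding genes that averaged at least 100 in EVs and fell under both numbered 136, had a median of 2752 in normoxia cells and a median GC content of 44.6%. The 645 that rose under both had a cell median of 19.2 and a GC content of 54.7%, and the 9440 others 478 and 50.1%. The rule named PAWR, PRKAA2, DDX46, KIF20B, TMEM123, OTUD4, PPP2R3B, TTF1, PRPF38B, KIF7, ZRANB2 and CBARP as the 12 lower. PAWR, a regulator of cell death, was at 1610, 1344 and 917 in normoxia EVs and at 510.3, 414 and 396 in hypoxia EVs (log2 fold change -1.52, SE 0.24, adjusted p = 0.00209, equal totals -0.95, adjusted p = 0.00869). PRKAA2, a catalytic subunit of the energy sensor AMPK, was at 511, 297 and 424 against 151, 92.9 and 171 (-1.57, SE 0.32, adjusted p = 0.0133). KIF20B, a kinesin of cell division, was at 918, 542 and 573 against 187, 213 and 325 (-1.48, SE 0.28, adjusted p = 0.0112). The 3 changed by -0.03, -0.09 and -0.32 in the cells, and their EV responses were lower than their cell responses (interaction adjusted p = 0.00781, 0.0244 and 0.0394). With equal totals that difference held for PAWR (adjusted p = 0.007) and not for PRKAA2 (0.0732) or KIF20B (0.0994). None of the 12 was called in all 6 fits without a library.

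Many transcripts for splicing proteins fell. Of 92 tested, 50 fell and 2 rose as deposited, with a median of -0.79, against 6.62% of all genes and 46.9% of coding genes over 1000 in cells falling. With equal totals 12 fell, which compares with 0.65% of all genes and 4.78% of protein-coding genes over 1000 in cells. These 12 were HNRNPAB, HNRNPH1, HNRNPU, LUC7L3, PRPF38B, PRPF4B, RBM25, SNRNP27, SNRNP70, SRSF11, SRSF4 and SRSF9. PRPF38B, a factor of spliceosome activation, was at 4729, 3711 and 2793 in normoxia EVs and at 1555, 1526 and 1367 in hypoxia EVs (log2 fold change -1.31, SE 0.22, adjusted p = 0.00503). LUC7L3, a U1-associated protein, was at 16687, 10779 and 8762 against 4593, 5065 and 4852 (-1.27, SE 0.25, adjusted p = 0.0129). SRSF11, an SR-rich splicing regulator, was at 7595, 7630 and 5998 against 2996, 3648 and 2852 (-1.16, SE 0.22, adjusted p = 0.0112). The groups of all 3 were apart, which the naming rule required of PRPF38B. With equal totals the 3 fell by 0.74, 0.70 and 0.59. All 3 are among those 12, so a fall under that scaling was given by the choice. PRPF40B and HNRNPCL1 rose, the latter from a gene listed at 0 in 2 of the normoxia libraries.

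Other upkeep lists had falling members as deposited and lost most calls with equal totals. Their counts stand against 6.62% of all genes and 46.9% of coding genes over 1000 in cells falling as deposited, and 0.65% and 4.78% with equal totals, and those of ribosomal proteins, translation factors and nucleolar proteins are near the shares of such abundant genes. Of 85 tested ribosomal protein genes 41 fell as deposited and 2 with equal totals, and their share was 2.73% ± 0.378 and 2.39% ± 0.193 of the library (exact permutation p = 0.3). Mitosis genes fell in 28 of 51 and then 2, translation factors in 22 of 50 and then 2, and nucleolar proteins in 19 of 43 and then 3. DKC1, the pseudouridine synthase that works with box H/ACA snoRNAs, was 1 of these 3, at 2881, 2142 and 1734 in normoxia EVs and 1001, 1038 and 921 in hypoxia EVs (log2 fold change -1.16, SE 0.22, adjusted p = 0.0112, equal totals -0.59, adjusted p = 0.0182). OXPHOS genes of the respiratory chain fell in 13 of 81 and then in 0, and mitochondrial ribosomal proteins in 5 of 75 and then 0, while 2 of each were lower with equal totals at an unadjusted limma p under 0.05. These 2 lists had lower medians in normoxia cells, 674 and 485. Of coding genes over 100 to 1000 there, 8.26% fell as deposited and 0.319% with equal totals. With equal totals the list medians of these 6 lists lay between -0.23 (mitosis) and 0.07 (OXPHOS), so that those of OXPHOS and mitochondrial ribosomal proteins (0.01) turned from negative to positive, all below the 1.21 of all genes. All 6 lists had called members falling in the cells as well, with medians from -0.51 (nucleolar) to -0.25 (mitosis).

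**Figure D4:**
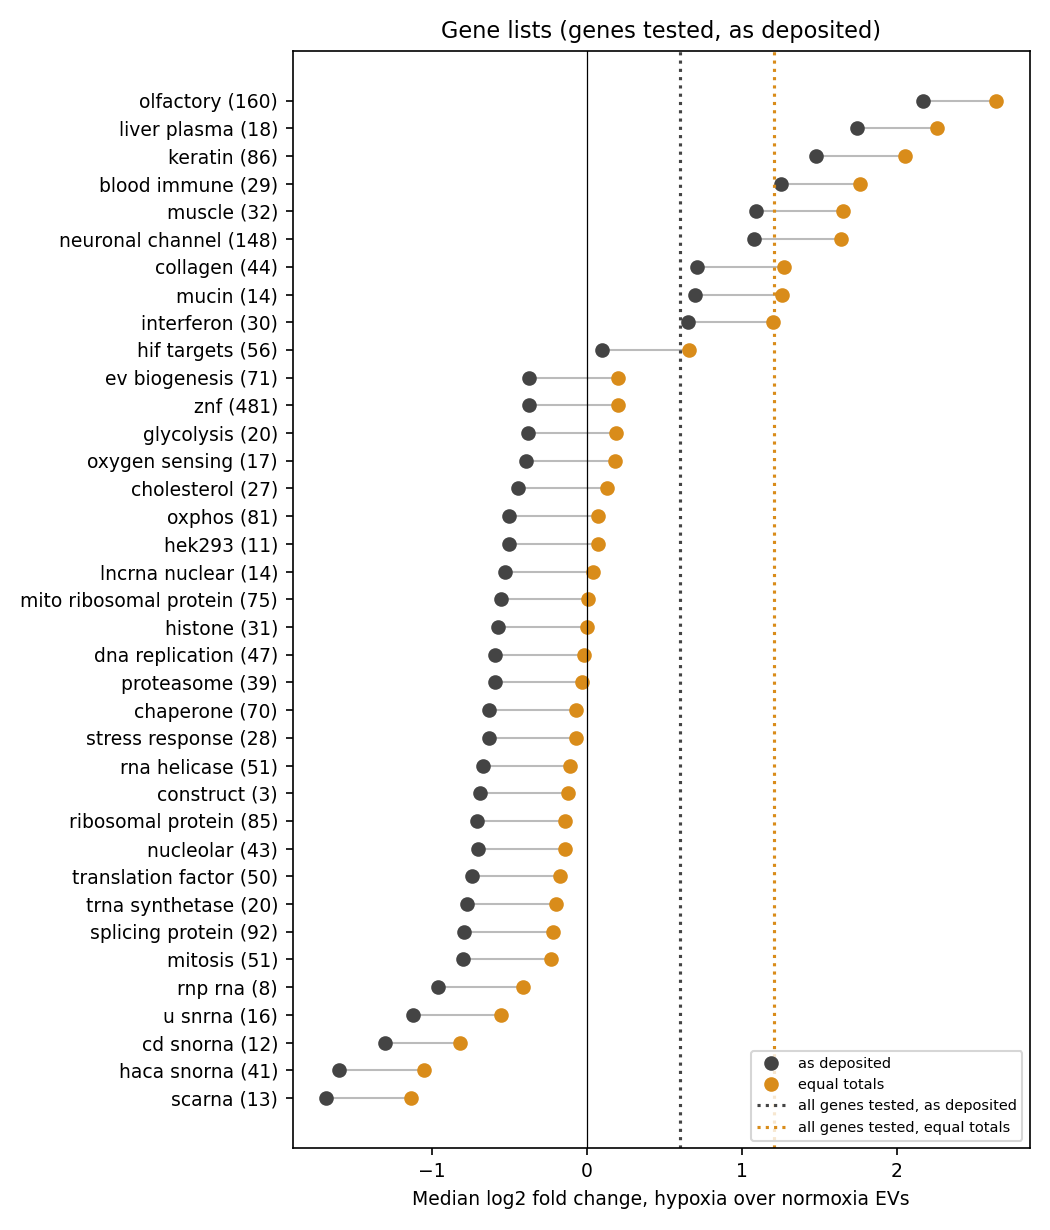
Median log2 fold change, hypoxia over normoxia EVs, of the tested genes of each list, as deposited (black) and with equal totals (orange), with the number tested in brackets. Dotted lines mark the medians of all genes tested, 0.60 and 1.21, and the snoRNA and scaRNA lists have the lowest medians. Among the lists at the top, many olfactory receptors and keratins passed the filter through the hypoxia libraries, while all 32 listed muscle genes passed it.

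Transcripts of the HIF response gave few calls in EVs as deposited. Of the 56 HIF targets tested none rose and 2, JMJD6 and TPI1, fell as deposited, with a median of 0.10. At an unadjusted limma p under 0.05 they numbered 5 higher and 3 lower, and edgeR and DESeq2 called none higher. With equal totals 11 rose and none fell, next to 15.2% of all genes rising, with a median of 0.66 against 1.21. At an unadjusted limma p under 0.05, 28 of the 56 were then higher and none lower, next to 10841 of all 29097 genes higher. The listed targets had a median level of 444 in normoxia cells. Coding genes over 100 to 1000 there had a median fold change of -0.32 as deposited and 0.24 with equal totals. Of those coding genes 9.31% rose with equal totals. The share of the HIF targets in the library was 0.427, 0.467 and 0.549% in normoxia EVs and 0.575, 0.564 and 0.545% in hypoxia EVs. Normoxia replicate 3 lay above hypoxia replicate 3 (exact permutation p = 0.2). In the cells 45 of 54 tested targets rose, against 8.01% of all genes tested there, with a median of 1.08 for the 45. The same 45 had a median of 0.13 in EVs as deposited, with 26 above 0, and of 0.70 with equal totals, with 43 above 0.

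The 11 that rose with equal totals were ALDOC, BHLHE40, BNIP3, HK2, LOXL2, P4HA2, PFKFB4, PPFIA4, SLC2A1, SLC2A3 and VLDLR. BHLHE40, a transcriptional repressor, was at 633, 731 and 307 in normoxia EVs and at 763, 694 and 734 in hypoxia EVs. Normoxia replicate 3 was the low library and the groups overlapped. Its log2 fold change was 0.48 as deposited (SE 0.27, adjusted p = 0.195) and 1.05 with equal totals (adjusted p = 0.0125), against 2.11 in cells. SLC2A1, the main glucose transporter, was at 569, 573 and 397 against 616, 528 and 509, with changes of 0.12 (adjusted p = 0.725) and 0.69 (adjusted p = 0.0286). BNIP3, a mitophagy receptor, was at 459, 622 and 330.3 against 695, 509 and 502, with changes of 0.30 (adjusted p = 0.391) and 0.87 (adjusted p = 0.0225). P4HA2, a collagen prolyl hydroxylase, was at 174, 153 and 225 against 331, 288 and 212 (0.58, adjusted p = 0.169, and 1.15, adjusted p = 0.0255).

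VEGFA, the vessel growth factor, was at 1296, 1119 and 1139 in normoxia EVs and at 983, 1052 and 1069 in hypoxia EVs. The hypoxia libraries were slightly lower, and the log2 fold change of -0.19 (SE 0.21, adjusted p = 0.495) turned to 0.37 with equal totals (adjusted p = 0.0859). In cells VEGFA rose by 1.10, and its EV response was lower by an interaction of -1.29 (adjusted p = 0.00284). Such an interaction was lower in 1.87% and higher in 0.443% of all genes tested. DDIT4, an inhibitor of mTORC1, was at 421, 309.9 and 235 against 298, 175 and 232 (-0.44, adjusted p = 0.278), while it changed by 2.02 in cells. PGK1, a glycolytic enzyme, was at 13792, 13222 and 24840 in normoxia EVs and 10409, 13411 and 13220 in hypoxia EVs, with normoxia replicate 3 standing out, and at 3120 in normoxia cells. Its change of -0.43 in EVs (adjusted p = 0.27) compared with 1.26 in cells. CA9, a carbonic anhydrase, was at most 40.1 in any EV library and was not called (-0.93, adjusted p = 0.469). HIF1A, the oxygen-regulated subunit itself, was at 495, 405 and 311 against 198, 256 and 219 (-0.83, SE 0.28, adjusted p = 0.0497), and was not called with equal totals (-0.26, adjusted p = 0.402).

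**Figure D5:**
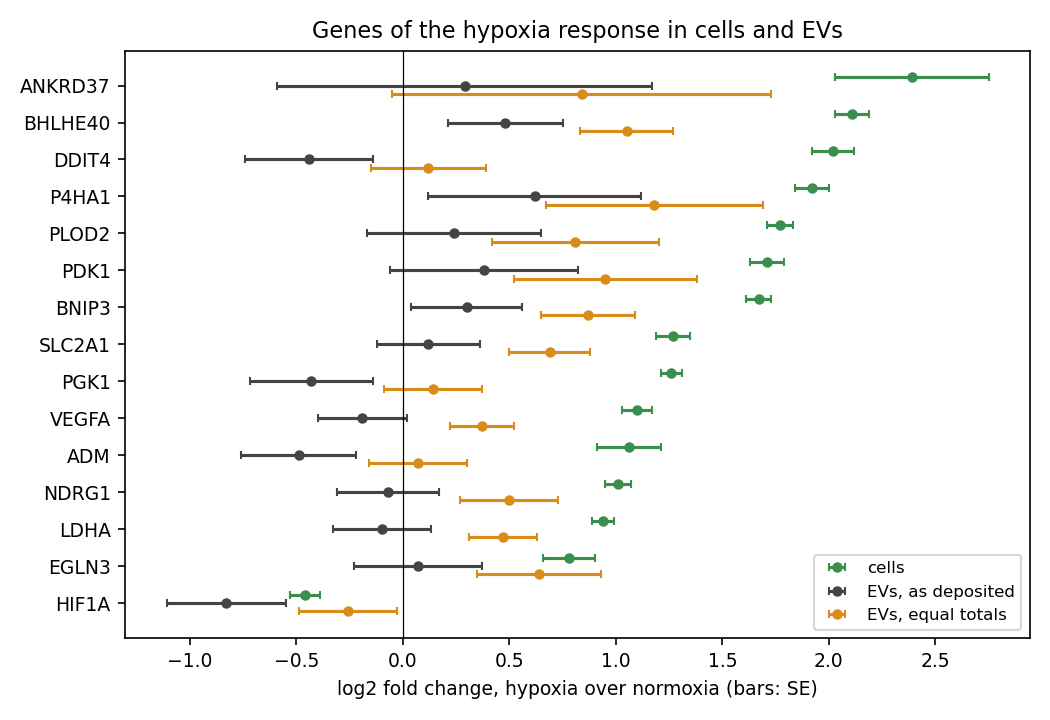
Log2 fold change, hypoxia over normoxia, of 15 genes of the hypoxia response in cells (green), in EVs as deposited (black) and in EVs with equal totals (orange), with SE bars. The cell value is the highest of the 3 for every gene except HIF1A, whose highest value is that of the EVs with equal totals.

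The construct genes were not called by limma under either scaling, and 3 of 3 were called lower by DESeq2 as deposited. As deposited, the values of all 3 were lower in every hypoxia library than in every normoxia library. EIF4E, the cap-binding factor, took 12.3, 9.72 and 11.1% of normoxia and 9.1, 10.6 and 10.6% of hypoxia EV libraries. YTHDF1, a reader of methylated adenosine, took 8.93, 9.21 and 9.02% against 7.9, 8.03 and 8.57%, with no overlap, while the shares of EIF4E and CD9 overlapped. CD9, a tetraspanin of vesicle membranes, took 3.22, 3 and 3.9% against 2.98, 3.26 and 4.06%. Together the 3 had 23.5% ± 1.33 and 21.7% ± 1.63 (SD, n = 3 each, exact permutation p = 0.3). With equal totals their log2 fold changes were -0.12, -0.15 and 0.02, none past the threshold. Vector and endogenous reads cannot be told apart.

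Gene IDs without a name in the annotation used here fell from 8.40% ± 0.646 of the library to 4.68% ± 0.376 (SD, n = 3 each, exact permutation p = 0.1). Most of this came from 2 IDs. ENSG00000265150 took 4.46, 4.12 and 3.76% of normoxia and 1.93, 2.08 and 1.64% of hypoxia EV libraries, and ENSG00000258486 took 3.06, 3.08 and 2.4% against 1.44, 1.25 and 1.07%. Neither was called as deposited (-1.70, adjusted p = 0.104, and -1.75, adjusted p = 0.0601), and both were with equal totals (-1.13, adjusted p = 0.000267, and -1.19, adjusted p = 0.000353).

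Of genes that make or mark vesicles, 1 of 71 tested rose and 10 fell as deposited, with 11 rising and none falling with equal totals. Among all genes 5.68% rose and 6.62% fell as deposited and 15.2% rose with equal totals, so the 11 are near the overall rate. TSPAN14, a tetraspanin, was the 1 that rose, at 162, 241 and 235 in normoxia EVs and 433, 566 and 335 in hypoxia EVs (log2 fold change 1.05, SE 0.28, adjusted p = 0.0265). CHMP4B, an ESCRT-III subunit, was at 2048, 2412 and 1736 against 1383, 1133 and 963 (-0.84, SE 0.22, adjusted p = 0.0242). It was not called with equal totals (-0.27, adjusted p = 0.215). Interferon-response genes rose in 4 of 30 and fell in none as deposited, against 5.68% of all genes rising, and in 7 with equal totals, against 15.2%. The listed genes had a median of 34.6 in normoxia cells. Of coding genes over 10 to 100 there, 14.1% rose as deposited and 32.4% with equal totals, so neither count stands out at that level. Among the 4 was MX2, an antiviral GTPase, at 45.2, 61.3 and 150.5 against 204, 155 and 373 (1.60, SE 0.44, adjusted p = 0.0279).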

How the data were processed

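RNA libraries of 3 normoxia and 3 hypoxia EV samples were compared, with the 6 cell libraries as reference for levels and interactions. The authors deposited a normalized signal for each gene. Dividing each library by its smallest step gave whole reads for 100% of the values (tolerance 0.01), so each library had been scaled by 1 factor. Bowtie 0.12.2, DESeq2 1.30.1, hg38 and GRCh38 are named in the submitters' processing notes. The sources used here do not give the counter, annotation, strand setting or filters, so values of overlapping, antisense or near-identical genes are uncertain. Of 57773 gene IDs, 52338 matched GENCODE release 29. Normoxia EV libraries held 5266244 to 7001767 reads and hypoxia EV libraries 3259453 to 6129782. The deposited totals were lower in hypoxia EVs (8188529 to 8378680 units) than in normoxia EVs (10292865 to 14143970). A count of 0 allows 3 reads, 4.01 to 7.57 units, which covers counting error alone.

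Hypoxia and normoxia EVs were compared with limma-trend in R 4.3.3 (limma 3.58.1), using log2(value + 1) of the 6 EV libraries, for genes with a mean of at least 10, with Benjamini-Hochberg adjustment over all genes tested and a threshold of 0.05. Fold changes on this scale understate low genes. Equal totals scale each EV library to the mean total. Shares were tested by exact two-sided permutation, and the interaction over all 12 libraries. That interaction fit takes a single spread per gene for cells and EVs together, which understates the EV spread where EVs vary more. edgeR 4.0.16 and DESeq2 1.42.0 were run on the recovered reads as alternatives. The limma and edgeR fits were also run on simulated counts with equal spread in both groups, unlike these data, so no result rests on them. The 37 gene lists and the members were chosen with earlier results of these data known. Named were the 12 protein-coding and 6 other genes each way with the largest absolute fold change less 1.96 SE (mean of at least 100, groups apart, called under both scalings, and where available in all fits without a library), 21 fixed genes, and up to 3 called genes of smallest p per list. Splicing and HIF members called with equal totals, host genes and genes of other lists were named beyond that rule, after their values were seen. The labels do not say what the replicate number marks, so numbers were not taken as pairs. Same-numbered replicates had deviations correlated at -0.01, 0.02 and 0.05, which with 3 libraries per group cannot decide whether they were pairs. Some of the genes and sequences that these rules give are not reported here.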

Additional observations from a re-analysis of the deposited data

Results flagged for a closer look

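The hypoxia response differed between EVs and cells, by the limma interaction over all 12 libraries, in 48 of the 151 named genes, 46 with a lower and 2 with a higher response in EVs. Over all 24171 genes tested, 1.87% were lower and 0.443% higher. The interaction fit pools the spread of cells and EVs, so its p-values understate the EV spread where EVs vary more than cells. The named genes were partly picked for their EV change, which favours its direction. Values in brackets are the EV response minus the cell response on the log2 scale, as deposited. With equal totals 33 of the 48 stayed past the threshold in the same direction.

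Small structured RNAs with a lower response in EVs were SNORD17 (-3.13), SNORA23 (-2.81), SNORA74B (-2.55), SNORD3B-1 (-2.34), SNORD3C (-1.87), SNORA80E (-2.46), SCARNA22 (-2.21), SCARNA7 (-2.22), SCARNA8 (-2.38), RNU4-2 (-1.63), RNVU1-7 (-1.73), RMRP (-1.24) and MIR3648-2 (-2.10). Of the 16 fixed genes of the hypoxia response 10 were lower, namely VEGFA (-1.29), ADM (-1.55), SLC2A1 (-1.15), BNIP3 (-1.36), LDHA (-1.04), NDRG1 (-1.08), PGK1 (-1.69), P4HA1 (-1.30), DDIT4 (-2.47) and BHLHE40 (-1.63). The glycolytic enzyme TPI1 was lower too (-0.93). Named protein-coding genes that fell in EVs and differed from cells were PAWR (-1.49), PRKAA2 (-1.49), DDX46 (-1.18), KIF20B (-1.17), TMEM123 (-1.52), TTF1 (-1.12), PRPF38B (-1.06), KIF7 (-1.01) and CBARP (-1.90). Among list members, RNA-related genes were PRPF4B (-0.78), SRSF11 (-1.08) and SNHG1 (-1.11), division and replication genes CKAP2 (-0.86), LIG1 (-1.22) and POLA1 (-1.21), and others CREBBP (-0.95), ATP5IF1 (-0.91), CEBPB (-1.05), SESN2 (-1.06), SQLE (-1.44) and COL6A2 (-1.45). The higher responses were those of TSPAN14, a tetraspanin (1.34), and TF, transferrin (2.42), which was at 54.7, 32.4 and 52.8 in normoxia EVs and 175, 210.1 and 224 in hypoxia EVs.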

How the results depend on the processing

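As deposited 1586 genes rose and 1846 fell. The counts were 4413 and 189 with equal totals, 2885 and 448 with equal totals after leaving out the 10 highest genes, 923 and 1435 with a pseudocount of 0.5, 2946 and 2365 with 5, 1026 and 2477 by edgeR, 1552 and 2990 by DESeq2, 3819 and 4419 when all 12 libraries were fitted, and 264 and 3379 with each library's level on near-silent genes subtracted. Without 1 library they ranged from 0 to 6144 and from 7 to 3934. Settings chosen after seeing the data were the subtraction with equal totals, 0 and 4, and equal totals without 1 library. The latter gave 2325 and 60, 0 and 7, and 11787 and 380 without normoxia replicates 1, 2 and 3, and 294 and 39, 60 and 22, and 137 and 26 without hypoxia replicates 1, 2 and 3. With the replicate number as a block, a number whose meaning the labels do not give, 2776 rose and 2633 fell. With it, 107 higher and 452 lower interactions became 48 and 278. With equal totals the interactions were 475 and 151. Without the 10 highest genes the ratio of the protein-coding share turned from 1.02 to 0.964 and that of unnamed IDs from 0.557 to 1.34. Leaving out 1 library gave OXPHOS share ratios of 0.917 to 1.01, against 0.953.

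Some named genes changed sign. With equal totals these were VEGFA (0.37), ADM (0.07), LDHA (0.47), NDRG1 (0.50), PGK1 (0.14), DDIT4 (0.12), CD9 (0.02) and GAPDH (0.08), and after leaving out the 10 highest genes VEGFA (0.24), LDHA (0.33) and NDRG1 (0.36). DESeq2 gave -0.00 for SLC2A1 and -0.09 for PLOD2, and edgeR -0.00 for PLOD2. Subtraction gave -2.46 for PDK1, -0.60 for EGLN3 and -0.20 for P4HA1. Subtraction with equal totals gave VEGFA 0.36, ADM 0.13, LDHA 0.62, PDK1 -2.27, NDRG1 0.32, PGK1 0.36, DDIT4 0.19, EIF4E 0.11, YTHDF1 0.08, CD9 0.25, ACTB 0.02, GAPDH 0.30, TPI1 0.10 and LDHB 0.04. Leaving out 1 library gave ranges across 0 for SLC2A1 (-0.06 to 0.21), LDHA (-0.33 to 0.08), PDK1 (-0.08 to 0.94), ANKRD37 (-0.10 to 0.59), EGLN3 (-0.14 to 0.35), NDRG1 (-0.19 to 0.04) and PLOD2 (-0.25 to 0.78). None of these values was past the threshold in the setting that turned its sign, and the cause was not tested.

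Reads carry no molecular identifiers, a read was worth 1.34 to 2.52 units, and values below 7.57 units may be 3 reads or fewer.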
